A study of Rattus norvegicus with 6 samples.

Results

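The 5 genes described here carry out or control the making of fatty acids in the cell: Acly, Acaca, Fasn and Scd, which encode enzymes, and Srebf1, which encodes a transcription factor. They were chosen as a pathway by their Ensembl identifiers, with earlier results of these data known. These were 5 of 33692 features in the deposited count tables. All 5 were among the 15497 features left after the filter on low counts. The tables hold identifiers without symbols, so the symbols are those given with the list: ENSRNOG00000016924 for Acly, ENSRNOG00000034013 for Acaca, ENSRNOG00000045636 for Fasn, ENSRNOG00000013552 for Scd and ENSRNOG00000003463 for Srebf1. The study sequenced RNA from frozen back skin of rats given vehicle or afatinib, an irreversible inhibitor of EGFR and the related ErbB receptors, with 3 libraries in each group. Its title gives the question as the early changes in skin rash caused by EGFR inhibitors. The labels give no strain, sex, age, dose or length of treatment, and do not say whether each library came from its own animal.

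Fatty acid synthesis starts from citrate exported from mitochondria. ATP citrate lyase (Acly) splits it into acetyl-CoA in the cytosol, acetyl-CoA carboxylase 1 (Acaca) turns acetyl-CoA into malonyl-CoA in the committed step, and fatty acid synthase (Fasn) builds palmitate from both. Stearoyl-CoA desaturase (Scd) then places a double bond in the chain, and SREBP-1, the protein of Srebf1, switches on the genes of all these steps. In skin the pathway is known to be most active in the sebaceous glands, which secrete sebum, and in the fat cells under the dermis. In whole skin, fewer cells of such a type and less RNA per cell cannot be told apart.

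The sequence in front of a gene is where SREBP-1 and its partner factors bind. RefSeq promoter windows (rat assembly GRCr8) were matched by symbol for 3 of the 5 genes, with 1 start site for Scd and Acly and 2 for Srebf1; Fasn and Acaca had no entry. The 250 bases before each start are shown 5′ to 3′ for the 3 genes with an entry. Capitals mark the CCAAT box (CCAAT) and the GC box (GGGCGG) on either strand. Both Srebf1 windows lie on the minus strand of chromosome 10, and the 2 start sites give transcripts that gene-level counts add together.
Scd, chr1:253231732-253231981, minus strand: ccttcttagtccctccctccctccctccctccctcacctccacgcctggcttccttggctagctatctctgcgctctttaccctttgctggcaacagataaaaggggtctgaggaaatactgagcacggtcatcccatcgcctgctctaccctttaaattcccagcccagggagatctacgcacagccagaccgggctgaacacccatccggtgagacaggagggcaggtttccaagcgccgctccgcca
Acly, chr10:85963632-85963881, minus strand: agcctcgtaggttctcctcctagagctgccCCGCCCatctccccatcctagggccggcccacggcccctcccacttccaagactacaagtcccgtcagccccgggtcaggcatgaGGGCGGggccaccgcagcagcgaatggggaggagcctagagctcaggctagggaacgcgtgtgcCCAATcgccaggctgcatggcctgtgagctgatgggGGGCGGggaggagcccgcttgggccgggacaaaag
Srebf1, upstream start, chr10:45529165-45529414, minus strand: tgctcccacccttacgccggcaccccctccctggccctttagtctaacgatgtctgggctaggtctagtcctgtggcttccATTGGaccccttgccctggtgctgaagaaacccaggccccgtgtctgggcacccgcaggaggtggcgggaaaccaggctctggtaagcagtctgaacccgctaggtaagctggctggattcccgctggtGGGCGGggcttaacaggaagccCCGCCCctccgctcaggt
Srebf1, downstream start, chr10:45519011-45519260, minus strand: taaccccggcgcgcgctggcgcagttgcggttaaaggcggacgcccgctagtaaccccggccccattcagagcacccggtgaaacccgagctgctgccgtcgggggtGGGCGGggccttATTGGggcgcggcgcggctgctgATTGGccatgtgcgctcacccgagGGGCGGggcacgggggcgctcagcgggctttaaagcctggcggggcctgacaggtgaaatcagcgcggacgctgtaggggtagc

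The Acly window held 1 CCAAT box and 3 GC boxes, the upstream Srebf1 window 1 and 2, and the downstream Srebf1 window 2 and 2. The Scd window held 0 of either. Among all 33469 windows, cut to the same 250 bases, 34% held a CCAAT box and 30.5% a GC box. E-boxes (CANNTG), which SREBP-1 and other factors bind, had 3 matches in the downstream Srebf1 window and 0 in the other windows shown, against 65.5% of all windows with a match. A core of the sterol regulatory element (TCACNCCAC, both strands) had 0 matches in the windows shown and was found in 0.974% of all windows. The motifs share no letters in the windows shown. A match is a description of letters and says nothing on binding, and a window without one covers only these bases. Only exact fits to these patterns were counted. A window with 0 matches can thus still hold variants of the element that differ from the pattern.

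The libraries held between 15304166 and 18494281 counts, and the 5 genes together took between 0.0497% and 0.184% of them. The lowest count of any of the 5 genes in a library was 426, for Acaca, so the counting error (1 Poisson SE) was at most 4.85% of a value. Across the 15497 features, the log2 values of afatinib replicate 3 correlated by 0.907 with afatinib replicate 1, by 0.944 with afatinib replicate 2 and by 0.943 to 0.960 with the vehicle libraries. Vehicle replicate 2 correlated by 0.944 and 0.931 with vehicle replicates 1 and 3. With afatinib replicates 1, 2 and 3 it correlated by 0.830, 0.876 and 0.943. Fitted fold changes, the enzyme sum and the ratios to Fasn are therefore also given without afatinib replicate 3. Fitted fold changes and the enzyme sum are given without vehicle replicate 2 too. Markers of sebaceous gland, fat, epidermis and muscle were not analysed here because no table paired symbols with identifiers, so the part of tissue makeup in the values below was not tested. The labelled tissue was likewise not checked by its markers.

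None of the 5 genes passed the test between afatinib and vehicle. The 4 enzymes did not share a direction in the means: Scd was lower after afatinib, Acly somewhat higher, and Fasn and Acaca nearly equal, each with overlapping groups. With TMM scaling, Srebf1 was lower after afatinib in every library than in any vehicle library, as were 13.2% of all features. On CPM from total counts its groups overlapped. The fitted Srebf1 difference was 0.669-fold, and it did not pass adjustment over all features either. Over all features, edgeR's quasi-likelihood test called 0 of 15497 (0%) at an adjusted p under 0.05, with 3023 (19.5%) at an unadjusted p under 0.05, while DESeq2 called 1032 of 15220 (6.78%) and limma voom 0. Of the 5 genes, 1, Srebf1, had an unadjusted p under 0.05 in edgeR, a share close to that of all features. Scd lay just above that threshold in edgeR (unadjusted p = 0.05047). In DESeq2 the unadjusted p of Scd was 0.007545, and 3616 features had an unadjusted p under 0.05. Afatinib replicate 3 was singled out by its correlations in these same data. Without it, edgeR called 1627 of 16014 features (10.2%) and again 0 of the 5 genes. The median log2 fold change was 0.0088 over the 5 genes and -0.0031 over all features, and the median size was 0.31 and 0.32.

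**Figure D1:**
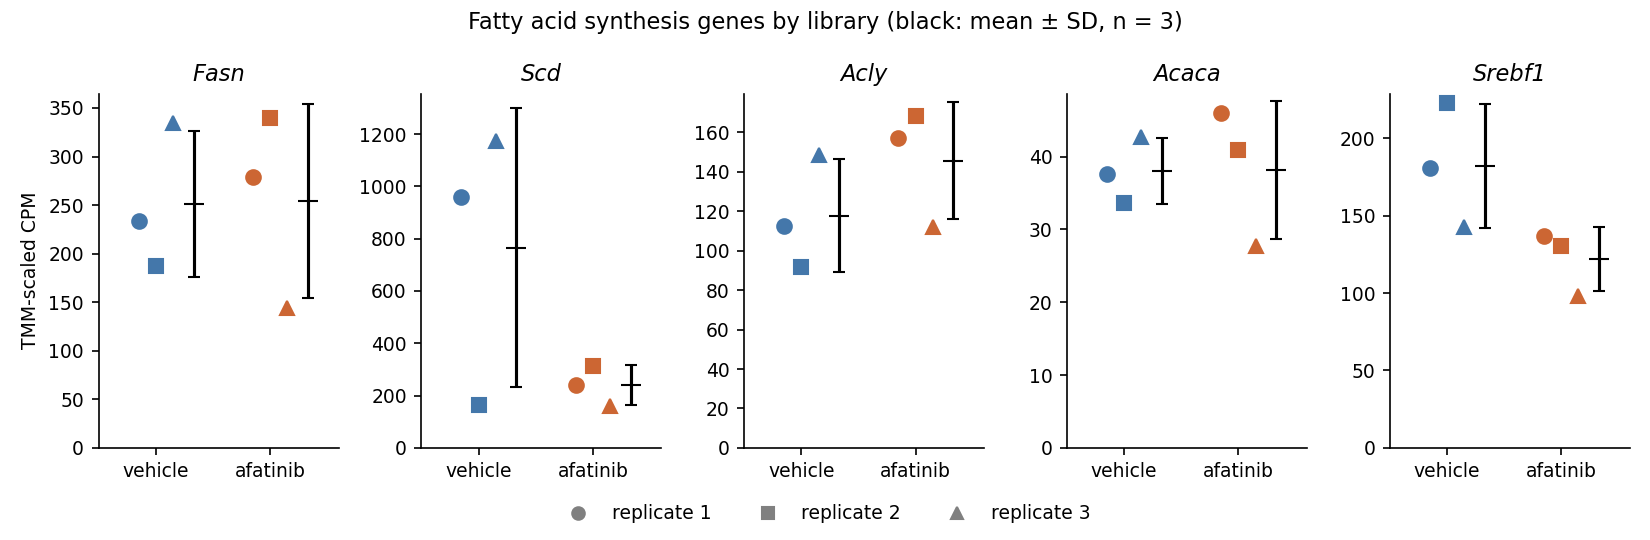
TMM-scaled CPM, the deposited counts relative to library size (vertical axis from 0, a separate scale for each gene) in the 3 vehicle and 3 afatinib libraries, with marker shapes for the replicates and black bars for the mean ± SD. Vehicle replicate 2, at 164 CPM of Scd, lies among the afatinib libraries, and the Srebf1 groups do not overlap on this scaling.

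Acly supplies the acetyl-CoA for the pathway. Its level in CPM, counts relative to the TMM-scaled library size, was 112, 91.9 and 149 in vehicle replicates 1, 2 and 3 and 157, 168 and 112 in afatinib replicates 1, 2 and 3. Afatinib replicates 1 and 2 were above all vehicle libraries, and afatinib replicate 3 lay level with vehicle replicate 1. The means were 118 ± 28.7 and 146 ± 29.7 CPM (SD, n = 3 each), a difference of about the size of the libraries' own spread (exact two-sided permutation p = 0.3). The fitted log2 fold change was 0.31 (edgeR's quasi-likelihood test, adjusted p = 0.4737), with a limma voom estimate of 0.31 ± 0.24 (SE). The 95% interval of limma voom ran from 0.834-fold to 1.85-fold, which includes no change. Without afatinib replicate 3 the log2 fold change was 0.46 (edgeR, adjusted p = 0.1938), and without vehicle replicate 2 it was 0.15 (edgeR, adjusted p = 0.7871).

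Acaca, the committed step, had the smallest spread of the 4 enzymes in vehicle skin, with a coefficient of variation of 11.9%. It stood at 37.6, 33.7 and 42.7 CPM in vehicle replicates 1, 2 and 3 and at 46.0, 41.0 and 27.7 CPM in afatinib replicates 1, 2 and 3. The afatinib libraries reached both above and below the vehicle range. The means of 38.0 ± 4.51 and 38.2 ± 9.47 CPM (SD, n = 3 each) did not differ beyond that spread (exact two-sided permutation p = 1). The log2 fold change was 0.0088 (edgeR, adjusted p = 0.9831), and its 95% interval in limma voom ran from 0.693-fold to 1.41-fold. The log2 fold change was 0.19 without afatinib replicate 3 (edgeR, adjusted p = 0.3956) and -0.074 without vehicle replicate 2 (edgeR, adjusted p = 0.9059).

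Fasn, which assembles palmitate, was the enzyme with the widest spread in afatinib skin, with a coefficient of variation of 39.3%. Its values were 234, 187 and 334 CPM in vehicle replicates 1, 2 and 3 and 279, 340 and 144 CPM in afatinib replicates 1, 2 and 3. The afatinib libraries were up to 2.35-fold apart, and the highest of them lay close to vehicle replicate 3, above it with TMM and just below it with upper quartile scaling. The means were 252 ± 75.3 CPM in vehicle and 254 ± 100 CPM in afatinib skin (SD, n = 3 each; exact two-sided permutation p = 0.9). The log2 fold change was 0.016 (edgeR, adjusted p = 0.9819), and the 95% interval of limma voom, from 0.523-fold to 1.81-fold, includes no change. Without afatinib replicate 3 the log2 fold change was 0.29 (edgeR, adjusted p = 0.4752). It was -0.16 without vehicle replicate 2 (edgeR, adjusted p = 0.8701), and its sign depended on the setting.

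Scd, the desaturase that makes monounsaturated fatty acids, had the largest fitted difference of the 5 genes and the largest spread in vehicle skin. Vehicle replicates 1 and 3 had 961 and 1174 CPM, whereas vehicle replicate 2 had 164 CPM. The afatinib libraries had 242, 314 and 161 CPM in replicates 1, 2 and 3. All 3 afatinib libraries were thus below vehicle replicates 1 and 3, and vehicle replicate 2 was level with the lowest afatinib library. The means were 766 ± 532 CPM in vehicle and 239 ± 76.2 CPM in afatinib skin (SD, n = 3 each), and the groups overlapped (exact two-sided permutation p = 0.3). The fitted log2 fold change of -1.68, or 0.312-fold, was lower than that of all but 0.794% of the tested features. In edgeR the unadjusted p was 0.05047 and the adjusted p 0.2567. DESeq2 gave an adjusted p of 0.07996. Limma voom gave -1.29 ± 0.71 (SE), with a 95% interval from 0.124-fold to 1.35-fold.

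Of the single libraries, vehicle replicates 2 and 3 moved the fitted Scd difference most. Without vehicle replicate 2 the log2 fold change was -2.16, with an unadjusted p of 0.0007556 that still gave an adjusted p of 0.1281 in edgeR. Without vehicle replicate 3 it was -1.23, and without afatinib replicate 3 it was -1.47 (edgeR, adjusted p-values of 0.4107 and 0.3095). It was -1.49 without vehicle replicate 1, -1.69 without afatinib replicate 1 and -1.92 without afatinib replicate 2. Vehicle replicates 1 and 3 exceeded vehicle replicate 2 by 5.85-fold and 7.15-fold. Of the 11665 other features with a mean of at least 5 CPM, 312 (2.67%) showed a gap at least as large in the same direction, and 36.7% had their lowest vehicle value in replicate 2. On the log2 scale the SD of Scd in vehicle skin was 1.56, exceeded by 3.15% of tested features, against a median of 0.22. In afatinib skin it was 0.48, exceeded by 29.3%, against a median of 0.30. Scd has closely related copies, such as Scd2, and without the counting settings the reads that such copies share cannot be assigned.

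Srebf1, the regulator, was the gene whose groups did not overlap. It had 181, 223 and 143 CPM in vehicle replicates 1, 2 and 3 and 137, 131 and 98.1 CPM in afatinib replicates 1, 2 and 3. The highest afatinib library, at 137 CPM, lay just under the lowest vehicle library, at 143 CPM. The means were 182 ± 40.0 and 122 ± 20.8 CPM (SD, n = 3 each; exact two-sided permutation p = 0.1, which is the minimum for 3 against 3 libraries). The log2 fold change was -0.58 with an unadjusted p of 0.03502 and an adjusted p of 0.2311 in edgeR, and -0.58 ± 0.22 (SE) with an adjusted p of 0.2478 in limma voom. Being lower in every afatinib library than in every vehicle library was shared by 2050 of 15497 features (13.2%), and the opposite by 12.9%, against 1 and 0 of the 5 genes. On CPM from total counts, without TMM, the Srebf1 groups overlapped: afatinib replicate 1 stood at 151 CPM and the lowest vehicle library at 143 CPM, and 10.5% of all features were lower without overlap. Total count scaling moved the median log2 fold change of all features by 0.12, and relative to that median Srebf1 stood at -0.55. Without afatinib replicate 3 the log2 fold change of Srebf1 was -0.45 (edgeR, adjusted p = 0.192), and without vehicle replicate 2 it was -0.41 (edgeR, adjusted p = 0.4592).

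**Figure D2:**
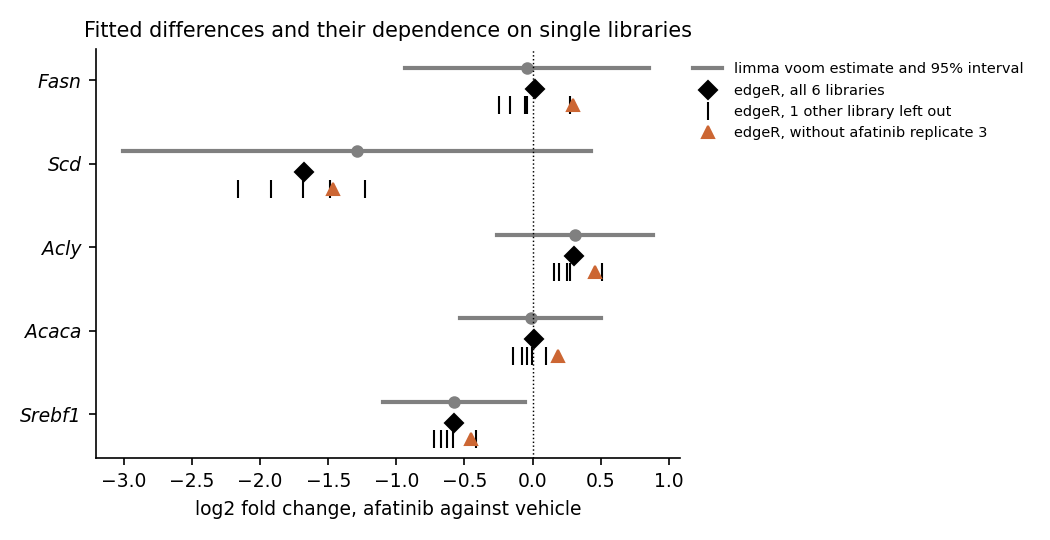
Log2 fold change of afatinib against vehicle (horizontal axis) for each gene, as fitted by edgeR with all libraries (diamonds) and with 1 library left out (ticks and triangles), above it the limma voom estimate with its unadjusted 95% interval (grey). The intervals of Fasn, Scd, Acly and Acaca include 0, and the interval of Srebf1 ends at -0.06, close to 0.

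The 4 enzymes shared their order of libraries in vehicle skin, and Srebf1 had the opposite order there. Within the vehicle group all 4 enzymes were highest in replicate 3, intermediate in replicate 1 and lowest in replicate 2, an order held by 23.3% of the 11666 features with a mean of at least 5 CPM. Srebf1 was highest in replicate 2 and lowest in replicate 3, as did 23.2% of features. Within the afatinib group all 5 genes were lowest in replicate 3, as were 42.2% of features. Fasn, Scd and Acly were highest in afatinib replicate 2, and Acaca and Srebf1 in afatinib replicate 1, except that with upper quartile scaling Srebf1 was highest in replicate 2. The order of Fasn, Scd and Acly over both groups was found in 2.45% of features. These orders rest on single libraries and are given without a test.

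**Figure D3:**
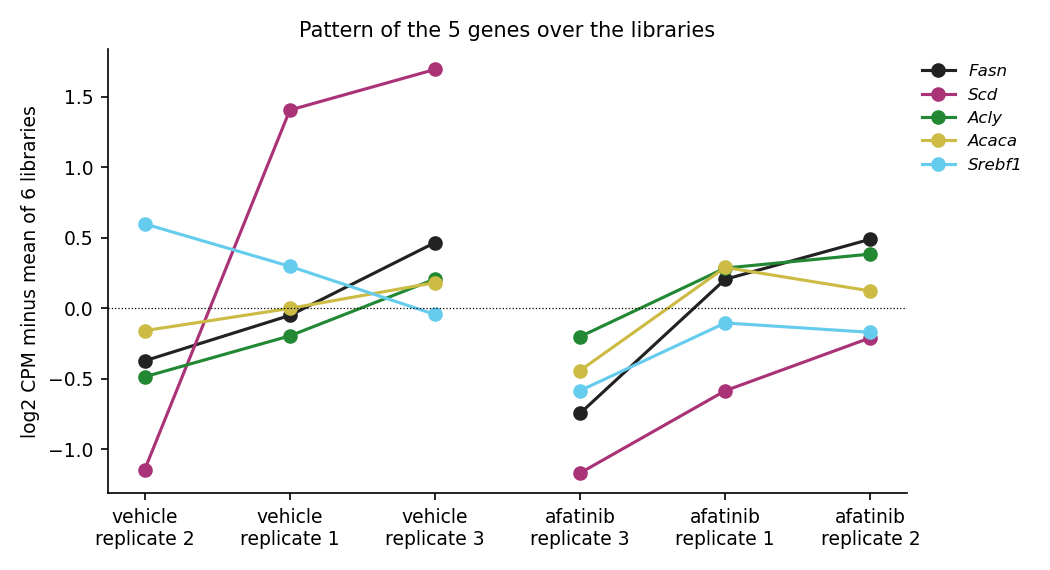
Log2 CPM of each gene minus its mean over the 6 libraries (vertical axis), with the libraries of each group placed from low to high Fasn and lines joining the values of 1 gene. The enzymes increase from left to right in the vehicle group while Srebf1 decreases, and Scd spans the widest range.

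Likeness between the genes was measured as the root mean square difference of their centred log2 CPM over the 6 libraries, where 0 means an equal pattern. Acly and Acaca were the closest pair at 0.21, followed by Fasn with Acaca at 0.25 and Fasn with Acly at 0.26. Srebf1 lay at 0.40 to 0.59 from these 3 enzymes, and Scd at 0.96 to 1.14 from each of the other genes. The distance grows with the size of the differences between libraries as well as with their order. Scd had the same order of libraries as Fasn and Acly within both groups, but the widest spread in vehicle skin. How often other pairs of features lie as close was not computed, so the distances only rank the 5 genes among themselves. Of the 11661 other features with a mean of at least 5 CPM, ENSRNOG00000012343 and ENSRNOG00000015421 were nearest to the mean pattern of the 5 genes, at 0.06 each. The deposited tables give no symbol for these 2 features. The 5 genes themselves lay at 0.225 (Fasn) to 0.829 (Scd) from that mean pattern. It is an average, and a distance to it is not comparable with a distance between 2 genes. ENSRNOG00000015421 had 44.1, 30.2 and 55.1 CPM in vehicle replicates 1, 2 and 3 and 38.1, 40.4 and 26.6 CPM in afatinib replicates 1, 2 and 3, with overlapping groups (edgeR, adjusted p = 0.5229).

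Ratios of counts within a library do not depend on its scaling. Relative to Fasn, Scd was higher in vehicle replicates 1 and 3 than in the other libraries. Counts of Scd were 4.11 and 3.51 times those of Fasn in vehicle replicates 1 and 3, and 0.879 times in vehicle replicate 2. In afatinib replicates 1, 2 and 3 the ratio was 0.867, 0.924 and 1.12. It was thus within a narrow range in the afatinib libraries and vehicle replicate 2. The difference between the group means was -1.87, and it was -1.23 without vehicle replicate 1, -2.84 without vehicle replicate 2 and -1.94 without afatinib replicate 3. The ratio compares libraries, not the amounts of the transcripts, since it was not divided by transcript length.

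Acly kept a nearly constant ratio to Fasn in vehicle skin, at 0.481, 0.492 and 0.445 in replicates 1, 2 and 3. In afatinib skin the ratio was 0.563, 0.495 and 0.776 in replicates 1, 2 and 3. Every afatinib library lay above every vehicle library, afatinib replicate 2 by a small margin, and 7.91% of all features had such a higher ratio to Fasn. The difference between the group means was 0.138, and 0.0559 without afatinib replicate 3. The ratio of Acaca to Fasn overlapped between the groups and ran from 0.121 to 0.192 over the 6 libraries. Its difference between the group means was 0.0027, and -0.014 without afatinib replicate 3. The ratio of Srebf1 to Fasn also overlapped, with 0.774, 1.19 and 0.427 in vehicle replicates 1, 2 and 3 and 0.490, 0.384 and 0.679 in afatinib replicates 1, 2 and 3. Its difference between the group means was -0.279, and it was -0.0822 without vehicle replicate 2, -0.465 without vehicle replicate 3 and -0.360 without afatinib replicate 3. Relative to Srebf1, counts of Acly were 0.622, 0.413 and 1.04 in the vehicle libraries and 1.15, 1.29 and 1.14 in the afatinib libraries, without overlap. A higher ratio to Srebf1 without overlap was found for 39% of all features.

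**Figure D4:**
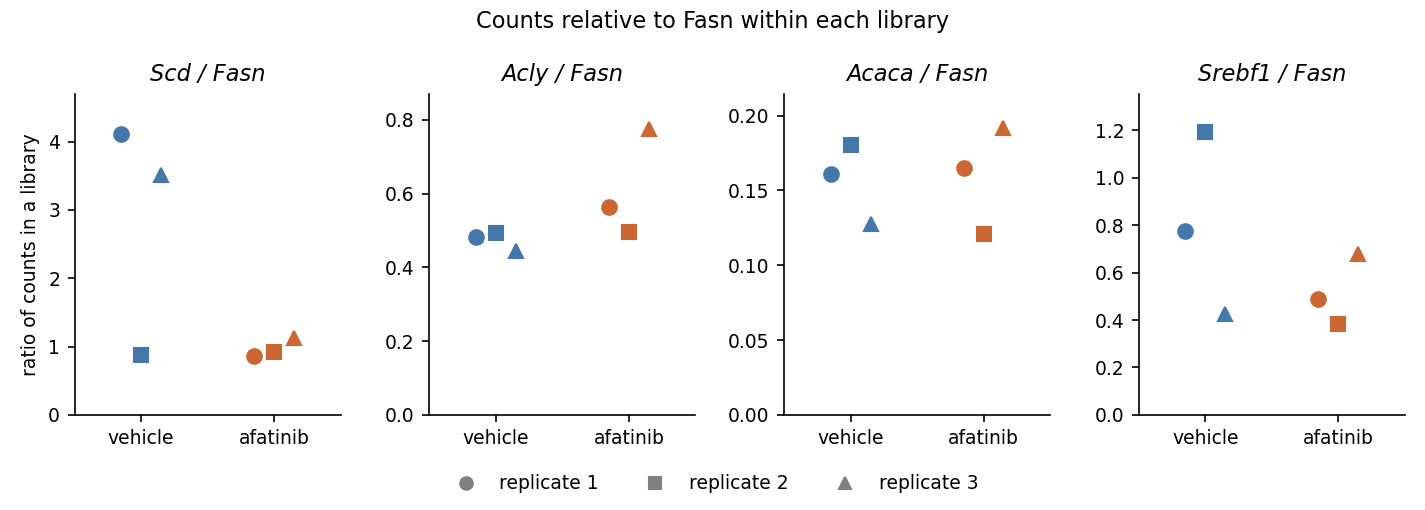
Counts of Scd, Acly, Acaca and Srebf1 divided by the Fasn counts of the same library (vertical axis from 0, a separate scale for each gene), with marker shapes for the replicates. The Scd ratio is above 3.5 in vehicle replicates 1 and 3 and between 0.867 and 1.12 in the other libraries.

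Summed over Acly, Acaca, Fasn and Scd, the enzymes reached 1345, 477 and 1699 CPM in vehicle replicates 1, 2 and 3 and 724, 863 and 445 CPM in afatinib replicates 1, 2 and 3. Scd made up 71.5% and 69.1% of this sum in vehicle replicates 1 and 3, and between 33.4% and 36.4% in the other 4 libraries. Without Scd the sums were 384, 312 and 525 CPM in vehicle and 482, 549 and 284 CPM in afatinib libraries. The difference between the group means of the sum of all 4 enzymes, afatinib minus vehicle, was -496 CPM with all libraries. It was -844 CPM without vehicle replicate 2, -233 CPM without vehicle replicate 3 and -380 CPM without afatinib replicate 3.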

How the data were processed

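The deposited values are raw read counts per gene, 1 table for each of 6 libraries, per the file headers and the values. HISAT2 2.0.5, featureCounts 1.5.0-p3 and DESeq2 1.16.1 appear, with no settings, in the submitters' processing notes; for build, annotation and strand the sources used here give nothing. Groups and replicate numbers follow the titles; the deposited headings number the afatinib libraries 3, 4 and 5. Nothing states separate animals, so p-values reflect only the spread of these samples, which may be technical. From the counts, filterByExpr, TMM and the robust quasi-likelihood test of edgeR 4.0.16 (R 4.3.3) were run on all features, with Benjamini-Hochberg adjustment and a threshold of 0.05. Permutation tests on CPM covered 5 genes and carry no adjustment. Log2 CPM used a prior count of 2. DESeq2 1.42.0, limma 3.58.1 with voom, other scalings and filters, the replicate block and each library left out were alternatives. The procedure was tested on simulated data with independent libraries and no outlying library, so that test does not cover the deviating libraries here. The reference gene table (GRCr8) matched 0 of 33692 identifiers, so prepared gene lists were not used here. Named genes are the 5 members and the 2 nearest features in pattern. Members and lists were chosen with earlier results of these data known.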

Additional observations from a re-analysis of the deposited data

How the results depend on the processing

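None of the 5 genes passed an adjusted p of 0.05 under any of the 14 settings run, with 6 libraries or 5. The sign of Acly, Scd and Srebf1 was kept under each of them. For Fasn the log2 fold change was -0.031 with upper quartile scaling, -0.038 in limma voom and -0.018 with the replicate block, and leaving out 1 library moved it between -0.25 and 0.29. For Acaca it was -0.039, -0.015 and -0.014 in the same settings, and -0.15 to 0.19 with 1 library left out. Leaving out 1 library gave -2.16 to -1.23 for Scd, 0.15 to 0.51 for Acly and -0.73 to -0.41 for Srebf1. Total count scaling, chosen after seeing the data, gave -1.56 for Scd and -0.43 for Srebf1. Over all features DESeq2 called 1032, and edgeR called 0 to 1627 with 1 library left out, the highest without afatinib replicate 3 and 51 without vehicle replicate 2. Differences of means, afatinib minus vehicle, moved by less than 1 SD between libraries, but that SD is wide. For settings that left out 1 of 3 libraries, arithmetic fixed this outcome in advance, so it shows no stability of these differences. With 1 library left out they ran from -39.8 to 57.9 CPM for Fasn, -3.67 to 5.50 for Acaca, 15.1 to 44.9 for Acly, -828 to -324 for Scd, -79.9 to -39.8 for Srebf1 and -844 to -233 for the enzyme sum. The ratios to Fasn ran from -2.84 to -1.23 for Scd, 0.0559 to 0.196 for Acly, -0.014 to 0.022 for Acaca and -0.465 to -0.0822 for Srebf1. Deviations of same-numbered libraries correlated by 0.20, -0.21 and -0.39, but other pairs of libraries were not compared, so pairing could not be judged. The replicate block gave 0 calls and left the 5 genes uncalled. The settings planned for the gene lists were not run, since no list could be matched.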
